A study of Mus musculus with 15 samples.

Results

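The ERK feedback inhibitors are genes that ERK signalling switches on and whose products then restrain the pathway that induced them. They were taken by gene symbol: the dual specificity phosphatases Dusp6 and Dusp4, the Sprouty genes Spry1, Spry2 and Spry4, the Sprouty-related genes Spred1 and Spred2, and Phlda1. Every probe set annotated with exactly 1 gene symbol that matched a name on this list was used. Of these 8 genes 7 had such a probe set, 12 of the 22690 probe sets on the array, and Dusp4 is not analysed here. The deposited values were converted to a log2 scale, and 8 of the 12 probe sets, which represent 6 genes, had a mean over all arrays above the level used as expression filter (log2 0.51, the 40th percentile of probe sets). Both probe sets of Spry4 lay below it.

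The cells were neural stem cells of the adult subventricular zone, a niche beside the lateral ventricles of the brain, dissected from female C57Bl6/J mice aged 6 months, grown as neurospheres and used at passages 5 to 7. The study compared 3 groups of 5 samples. Undifferentiated cells were harvested at time 0 from medium that held the growth factors bFGF and EGF. Cells of the 12 h and 24 h groups had been without these factors for that time, in 5% serum on poly-D-lysine, so that loss of the factors, serum and the new substrate came together and cannot be told apart. No transgene or allele is named in the labels. Whether the replicates are separate cultures is not said in them, so the spread behind every p-value may be only technical, and precision is limited by the number of arrays. Replicate numbers below only name arrays.

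Growth factors such as EGF and FGF bind receptor tyrosine kinases, which load RAS with GTP and so start the kinase cascade from RAF through MEK to ERK. ERK enters the nucleus, where ETS-family and other transcription factors raise a set of target genes that includes brakes on the cascade itself: phosphatases that strip phosphate from ERK, Sprouty proteins that act between receptor and RAF, and SPRED proteins that bring the RAS-inactivating protein neurofibromin to the membrane. Since their transcripts are short-lived and depend on ERK activity, these genes are widely read as a gauge of the pathway, and EGF and FGF are the factors that keep neural stem cells dividing in culture.

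Several of these genes moved together in the arrays described below, and the windows just upstream of 3 of their transcription starts are shown to let their letters be compared. RefSeq promoter windows (assembly GRCm38.p6) were read for 5 of the 8 genes, not for Dusp4, Spry4 or Phlda1. The entries of a chromosome were passed over for these genes but kept in the shares over all promoter windows below. The 250 bases before the start were searched on both strands. The motifs were CGGAAG, with its variant AGGAAG, which hold the core letters that ETS-family factors bind, the cAMP response element TGACGTCA and the AP-1 element TGACTCA. Copies of these ETS motifs can overlap each other, and none did in these 5 windows. Capitals mark the ETS motifs, which read CTTCCG when the first of the motifs is on the other strand and CTTCCT when the variant is. Shorter runs of their core letters were not searched and are not marked. Dusp6 (chr10:99262981-99263230, plus strand) and Spred2 (chr11:19924192-19924441, plus strand), the genes with the smallest adjusted p at 24 h, are shown first. Shown after them is Spry1 (chr3:37639697-37639946, plus strand), whose window holds neither of these ETS motifs and which is not next by adjusted p.
Dusp6: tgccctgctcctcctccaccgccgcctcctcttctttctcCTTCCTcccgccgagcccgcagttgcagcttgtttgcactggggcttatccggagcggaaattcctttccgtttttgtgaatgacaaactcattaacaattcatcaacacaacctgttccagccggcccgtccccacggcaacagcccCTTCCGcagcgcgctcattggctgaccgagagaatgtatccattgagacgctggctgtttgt
Spred2: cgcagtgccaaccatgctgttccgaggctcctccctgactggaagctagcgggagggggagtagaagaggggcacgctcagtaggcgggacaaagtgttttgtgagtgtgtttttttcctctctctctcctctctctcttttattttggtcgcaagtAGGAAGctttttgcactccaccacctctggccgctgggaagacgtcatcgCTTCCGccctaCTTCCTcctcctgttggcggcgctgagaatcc
Spry1: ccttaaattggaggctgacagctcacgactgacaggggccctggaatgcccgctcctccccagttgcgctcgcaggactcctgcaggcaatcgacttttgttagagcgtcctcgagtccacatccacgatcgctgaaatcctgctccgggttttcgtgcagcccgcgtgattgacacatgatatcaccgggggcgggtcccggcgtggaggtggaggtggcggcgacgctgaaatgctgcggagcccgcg

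The Dusp6 window held 1 CGGAAG, 62 bases before the start, and 1 AGGAAG, 210 bases before it. The Spred2 window held 1 CGGAAG and 2 AGGAAG, the nearest 32 bases before the start. The Spry1 and Spry2 windows (the latter at chr14:105896820-105897069, minus strand) held neither motif, and that of Spred1 (chr2:117120821-117121070) held 1 CGGAAG, 17 bases before the start. None of the 5 windows held the cAMP response element or the AP-1 element. These elements are rare: they were present in 1.55% and 4.46% of all promoter windows, and in 2.58% and 3.07% of those of tested genes. At least 1 of the ETS motifs was present in 39.2% of the 32851 promoter windows of the same length and in 46.1% of those of tested genes, so 3 of 5 is a description of these windows only.

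The labels conflict for this series: in 13 of 15 samples the code in the title differs from that of the array file, and the group would differ in 8. Groups here follow the titles. Grouped by the file codes, limma called 0 genes of 7909 in each comparison (81, 118 and 21 at an unadjusted p under 0.05). The title codes end in 3 different suffixes, called A, B and C here, each of which holds arrays of every group. Of the markers of neural stem and progenitor cells on the array, 14 of 14 were above the expression filter, against 0 of 10 for microglia and 0 of 10 for endothelial cells. The filter was also passed by 7 of 10 neuron, 2 of 2 ependymal and 1 of 10 pericyte and fibroblast markers. At 24 h, 9 of 12 oligodendrocyte and 7 of 11 astrocyte markers tested were higher than in undifferentiated cells (12.7% of all genes were higher), and 1 astrocyte marker, the glutamate transporter Slc1a2, was lower (-0.45 ± 0.17, limma adjusted p = 0.0487). Of the 14 stem and progenitor markers, 3 were higher (Sox2, Msi1 and Prom1) and 3 lower (Nes, Hes1 and Egfr). Higher too were 2 of 7 neuron, 2 of 2 ependymal and the 1 pericyte and fibroblast marker tested. The linear levels of the astrocyte list summed to 724 to 1385 in undifferentiated, 1044 to 2890 in 12 h and 1764 to 4094 in 24 h arrays, and those of the oligodendrocyte list (in which Mog lay below the filter) to 980 to 1566, 965 to 3035 and 1366 to 3991. Their part in the results below was not tested. The values come from bulk RNA, so fewer cells that express a gene and less of its RNA per cell cannot be told apart.

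By 24 h the tested feedback inhibitors had fallen together. All 6 were lower than in undifferentiated cells at a limma adjusted p under 0.05 (19.4% of all 7909 genes tested were lower by that measure), and in 5 of the 6 the groups did not overlap (16% of all genes were lower without overlap). The median log2 difference of the 6 was -1.68, against -0.06 over all genes tested. The order of size ran from Dusp6, left at 6.85% of its undifferentiated level, through Spry1, Spred2, Phlda1 and Spry2 to Spred1, left at 65.9%. At 12 h only Phlda1 passed, 1 of 6 (4.56% of all genes were lower), and 0 of 6 genes had groups without overlap (4.74% of all genes). The 12 h arrays differed widely among themselves: in 3 of them all 6 genes lay below every undifferentiated array, and in the other two at most 1 did. Between 24 h and 12 h 0 of 6 passed in limma (0.354% of all genes were lower). At an unadjusted p under 0.05, 4 of 6 were lower, beside 1188 of all 7909 genes that differed in either direction. The comparisons at 12 h and 24 h share the undifferentiated arrays, and so their values are given side by side without a test of likeness.

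**Figure D1:**
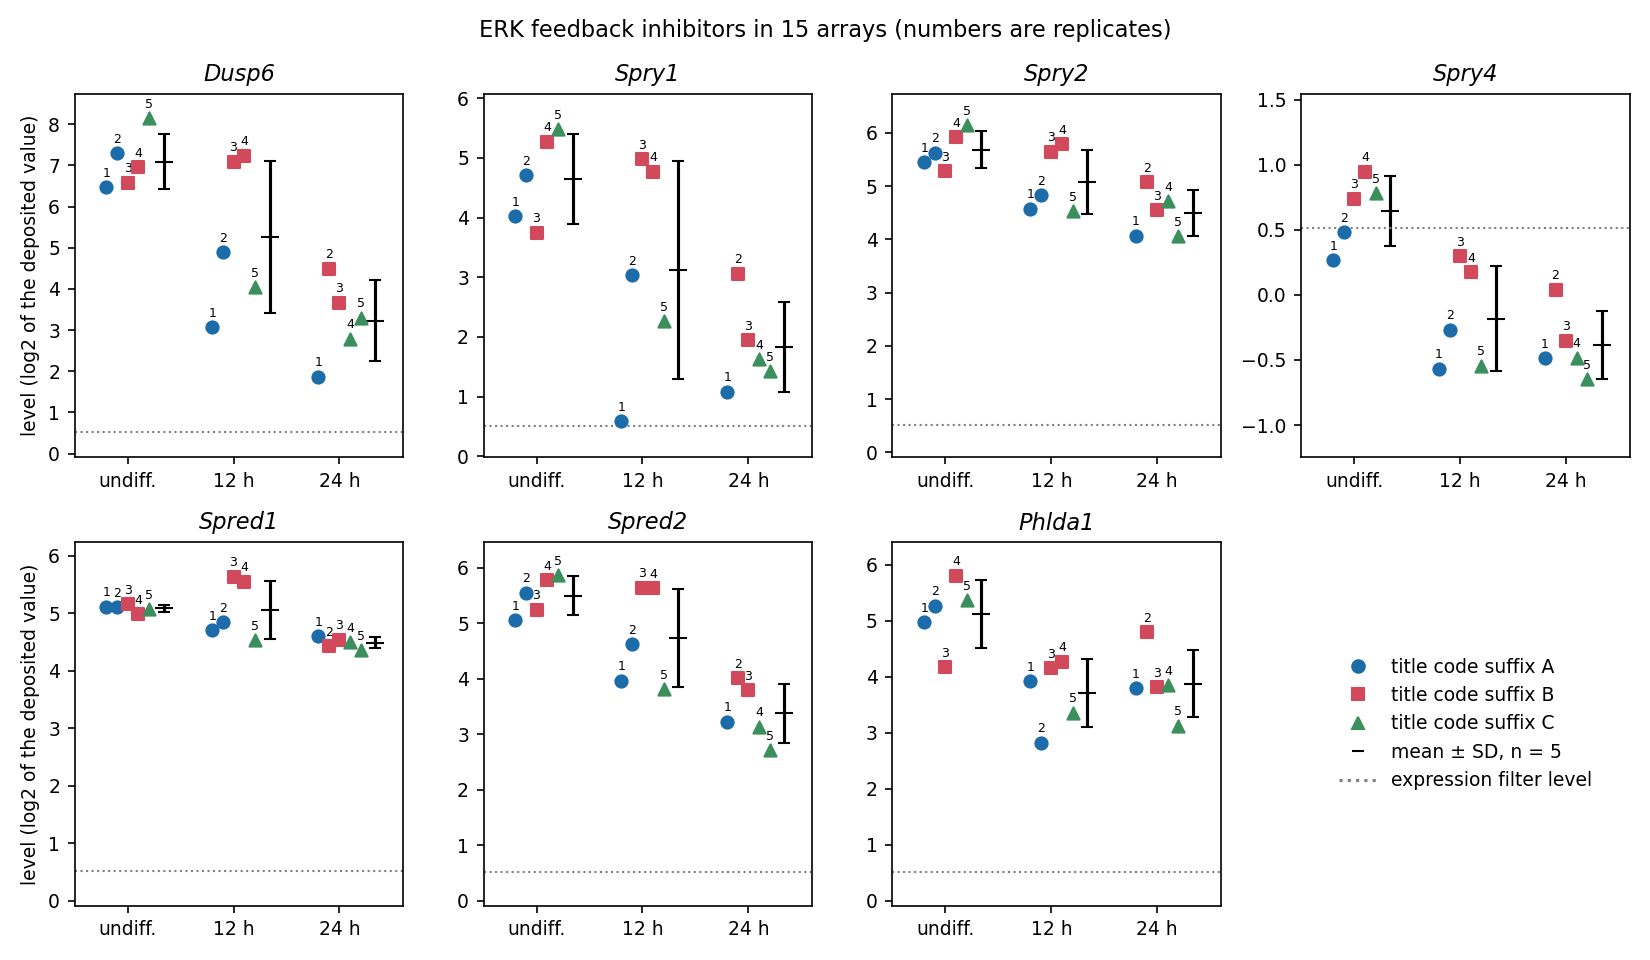
Log2 level of each feedback inhibitor in the 15 arrays (points, numbered by replicate; colour and shape give the title code suffix), with the mean ± SD of each group of 5 beside them and the expression filter of 0.51 as a dotted line. At 12 h replicates 3 and 4 lie with the undifferentiated arrays for Dusp6, Spry1, Spry2 and Spred2, and replicates 1, 2 and 5 lie lower.

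Dusp6 encodes the cytoplasmic phosphatase that removes phosphate from ERK and is selective for it. Its log2 levels (probe set 1415834_at) were 6.47, 7.30, 6.58, 6.95 and 8.15 in undifferentiated replicates 1 to 5. They were 3.07, 4.89, 7.08, 7.23 and 4.03 in the 12 h arrays and 1.87, 4.49, 3.67, 2.78 and 3.30 in the 24 h arrays. Every 24 h array lay below every undifferentiated array, while 12 h replicates 3 and 4 lay within the undifferentiated range and the other 12 h arrays within or near the 24 h range. The mean was 7.09 ± 0.67, 5.26 ± 1.85 and 3.22 ± 0.98 (SD, n = 5 each). The fall at 24 h was 14.6-fold (log2 difference -3.87 ± 0.70, limma adjusted p = 0.000986). The difference at 12 h was -1.83 ± 0.70 and did not pass (limma adjusted p = 0.108, but 0.0376 and 0.0383 with the title code suffix as a fixed and a random block), nor did that between 24 h and 12 h (-2.04 ± 0.70, limma adjusted p = 0.170).

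The Sprouty genes encode membrane-associated adaptors that growth factors induce and that blunt the signal between receptor and RAF. Spry1 (1415874_at) had log2 levels of 4.02, 4.71, 3.74, 5.27 and 5.48 in undifferentiated replicates 1 to 5. Its levels were 0.58, 3.03, 4.98, 4.77 and 2.26 at 12 h and 1.08, 3.06, 1.95, 1.63 and 1.43 at 24 h. The 24 h arrays all lay below the undifferentiated ones, and 12 h replicate 1 was the lowest of all 15 arrays, close to the expression filter. The group means were 4.65 ± 0.76, 3.12 ± 1.83 and 1.83 ± 0.76 (SD, n = 5 each). Spry1 fell 7.05-fold at 24 h (log2 difference -2.82 ± 0.67, limma adjusted p = 0.00534), and its difference of -1.52 ± 0.67 at 12 h did not pass (limma adjusted p = 0.158).

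Spry2 moved less than Spry1. Its probe set 1436584_at stood at 5.45, 5.63, 5.28, 5.91 and 6.14 in undifferentiated cells, at 4.57, 4.82, 5.65, 5.79 and 4.53 at 12 h and at 4.07, 5.07, 4.55, 4.72 and 4.06 at 24 h on the log2 scale. The 24 h and undifferentiated arrays did not overlap, with the closest pair at 5.07 and 5.28. The fall at 24 h was 2.28-fold (log2 difference -1.19 ± 0.27, limma adjusted p = 0.00413), and the difference at 12 h was -0.61 ± 0.27 (limma adjusted p = 0.160). The other probe set, 1421656_at, lay below the filter, with group means of 0.80, 0.47 and 0.16. In the fit without a filter it differed at 24 h by -0.64 ± 0.20 (limma adjusted p = 0.0376, with 12.9% of all 20380 probe sets lower in that fit).

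Spry4 was close to the bottom of the scale in every group. Its brighter probe set, 1422021_at, had log2 levels of 0.27, 0.48, 0.74, 0.95 and 0.78 in undifferentiated cells, -0.57, -0.27, 0.30, 0.17 and -0.55 at 12 h and -0.49, 0.04, -0.35, -0.48 and -0.65 at 24 h. Only undifferentiated arrays rose above the filter level, 3 of the 5. In the fit without a filter the difference was -0.83 ± 0.18 at 12 h (limma adjusted p = 0.0197, with 2.65% of all 12393 genes lower) and -1.03 ± 0.18 at 24 h (limma adjusted p = 0.000987, with 13.7% lower). In 12 h replicates 3 and 4 its level relative to the undifferentiated mean was -0.35 and -0.47, and Phlda1 was the other gene of the list that lay below that mean in both arrays. The dimmer probe set, 1422020_at, stayed between -0.96 and -0.34 in all arrays, and its difference at 24 h was -0.34 ± 0.07.

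Spred1 and Spred2 encode Sprouty-related proteins with an EVH1 domain that hold RAS signalling in check through neurofibromin. Spred2 (1434403_at) had log2 levels of 5.05, 5.55, 5.24, 5.77 and 5.86 in undifferentiated replicates 1 to 5. They were 3.97, 4.62, 5.64, 5.63 and 3.81 at 12 h and 3.22, 4.01, 3.79, 3.14 and 2.71 at 24 h. The 24 h arrays lay more than a log2 unit below the undifferentiated ones, and 12 h replicates 3 and 4, nearly identical to each other, lay in the undifferentiated range. Spred2 fell 4.35-fold at 24 h (log2 difference -2.12 ± 0.35) and had the smallest limma adjusted p of the group, 0.000603. Its difference was -0.76 ± 0.35 at 12 h (limma adjusted p = 0.174) and -1.36 ± 0.35 between 24 h and 12 h (limma adjusted p = 0.0867, but 0.0235 and 0.0199 with the suffix as a fixed and a random block). A second Spred2 probe set, 1423001_at, read between -0.48 and -0.13 in all 15 arrays and did not pass (-0.05 ± 0.06 at 24 h, limma adjusted p = 0.607).

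Spred1 fell least, and its undifferentiated and 24 h groups were the tightest. Probe set 1423160_at read 5.11, 5.10, 5.15, 4.98 and 5.07 in undifferentiated cells, a group SD of 0.0649 on the log2 scale. It read 4.70, 4.84, 5.64, 5.54 and 4.53 at 12 h and 4.60, 4.42, 4.54, 4.49 and 4.36 at 24 h. In 12 h replicates 3 and 4 Spred1 was above every undifferentiated array, and in the other three 12 h arrays it was below all of them. The difference at 24 h was -0.60 ± 0.18, a 1.52-fold fall (limma adjusted p = 0.0193, and 0.0528 after median centring of the arrays), and the mean at 12 h hardly differed (-0.03 ± 0.18, limma adjusted p = 0.935). The 2 further Spred1 probe sets gave larger falls at 24 h, of -0.87 ± 0.23 for 1423161_s_at (limma adjusted p = 0.0104) and -1.14 ± 0.31 for 1423162_s_at (limma adjusted p = 0.0120) in the fit of single probe sets. For 1423161_s_at the 24 h arrays, at 3.61 to 4.23, lay below all 12 h arrays, at 4.28 to 5.46, though the difference of -0.74 ± 0.23 did not pass (limma adjusted p = 0.165). In the fit of 12556 single probe sets, 8 of 8 tested probe sets of the feedback inhibitors were lower at 24 h (18.2% of all were lower) and 1 of 8 at 12 h (3.54%).

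**Figure D2:**
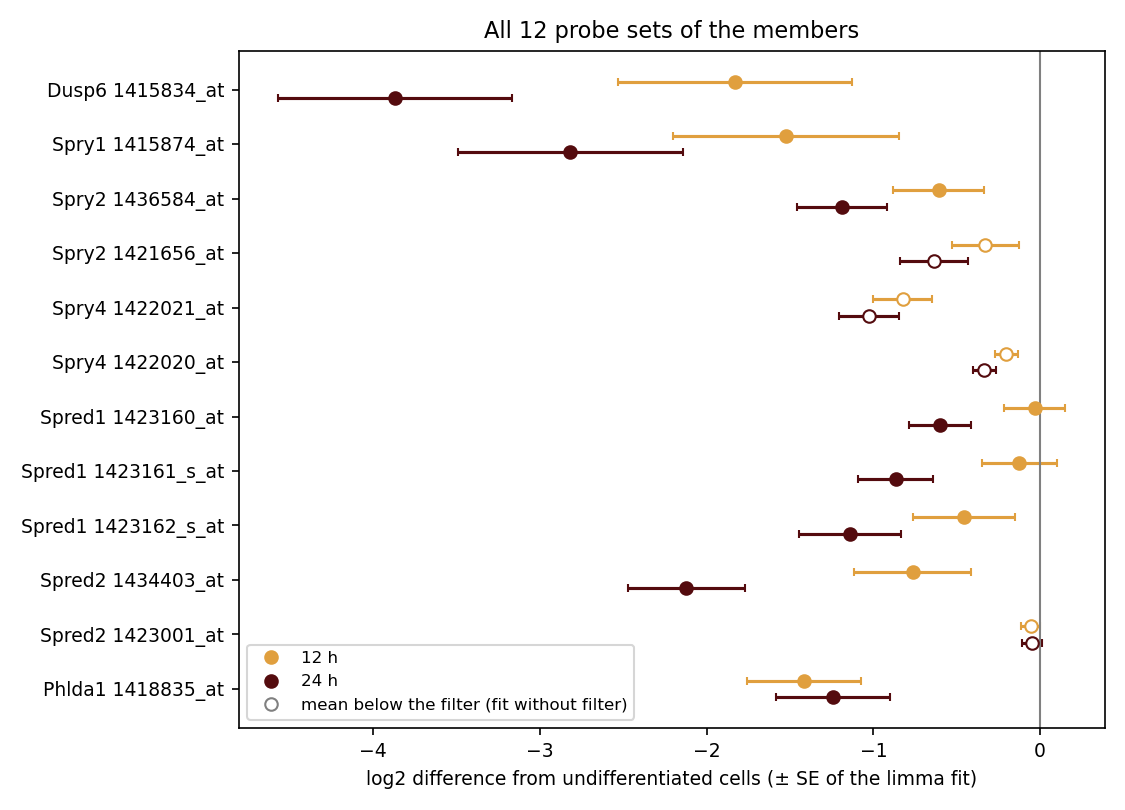
Log2 difference from undifferentiated cells for each of the 12 probe sets at 12 h and 24 h, with bars of ± 1 SE from the limma fit of single probe sets. Open circles are the 4 probe sets whose mean lay below the expression filter, taken from the fit without a filter; the 24 h points run from -3.87 for Dusp6 to -0.05 for the second Spred2 probe set.

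Phlda1 encodes a protein with a pleckstrin homology-like domain whose transcript is induced by growth factors. Its log2 levels (1418835_at) were 4.98, 5.27, 4.18, 5.81 and 5.37 in undifferentiated replicates 1 to 5. They were 3.92, 2.82, 4.16, 4.27 and 3.36 at 12 h and 3.79, 4.80, 3.81, 3.85 and 3.13 at 24 h. Each later group overlapped the undifferentiated one through a single array on either side, undifferentiated replicate 3 being low, and 12 h replicate 4 and 24 h replicate 2 being high. The group means were 5.12 ± 0.61, 3.71 ± 0.61 and 3.88 ± 0.60 (SD, n = 5 each). Phlda1 fell 2.67-fold at 12 h (log2 difference -1.42 ± 0.34, limma adjusted p = 0.0226) and 2.37-fold at 24 h (-1.24 ± 0.34, limma adjusted p = 0.0110), and between the times its difference was 0.17 ± 0.34 (limma adjusted p = 0.850). The call at 12 h was lost when 1 of 4 arrays was left out: undifferentiated replicate 4 (limma adjusted p = 0.0604) or 5 (0.0570), or 12 h replicate 2 (0.0664) or 5 (0.0634).

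The single arrays show the pattern common to the group. The mean of the 6 tested genes, relative to undifferentiated cells, was -2.05, -1.35, 0.00313, 0.0184 and -1.77 on the log2 scale in 12 h replicates 1 to 5. It was -2.41, -1.21, -1.80, -2.09 and -2.36 in the 24 h arrays and ran from -0.49 to 0.49 in the undifferentiated ones. In 12 h replicates 1, 2 and 5 all 6 genes lay below every undifferentiated array, while replicate 3 had 1 such gene and replicate 4 had 0. The share of all tested genes below every undifferentiated array was 33.2%, 22.5% and 32.3% in 12 h replicates 1, 2 and 5, and 12.7% and 13.2% in replicates 3 and 4. In the 24 h arrays 5 of the 6 genes (replicate 2) or all 6 (the other four arrays) were below every undifferentiated array, with 26.1% to 45.7% of all genes.

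**Figure D3:**
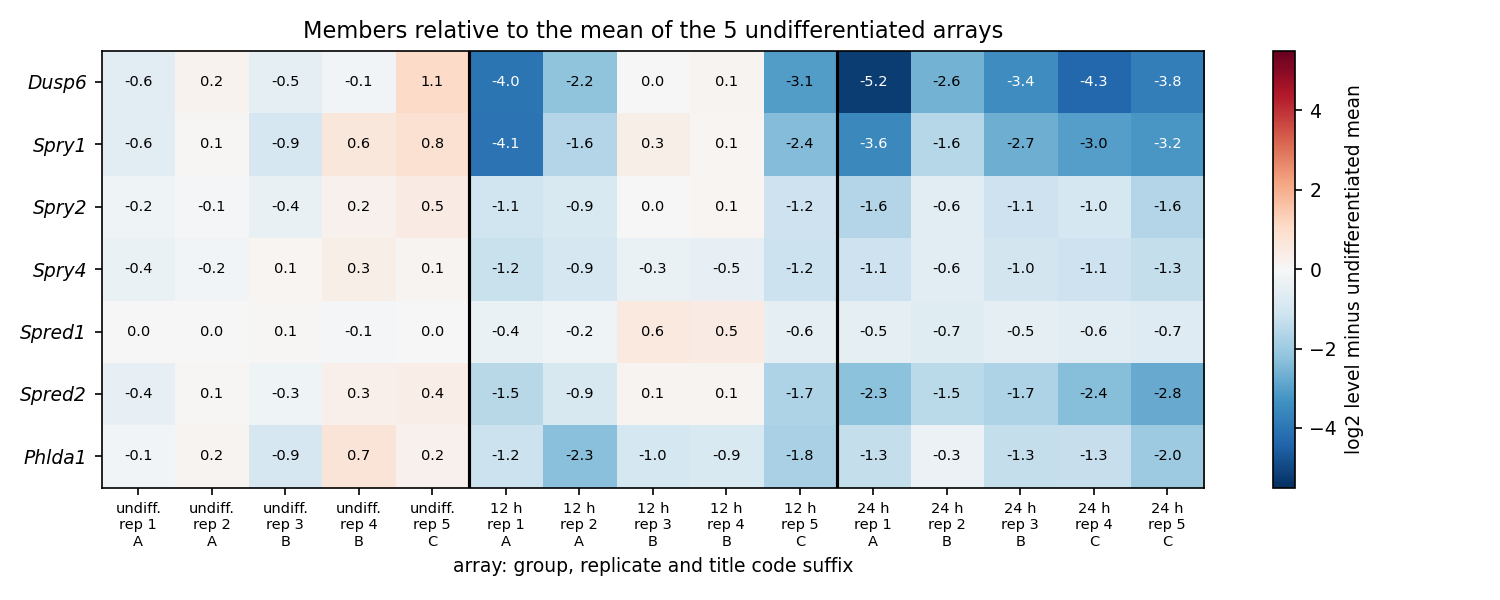
Log2 level of each feedback inhibitor in each array minus its mean over the 5 undifferentiated arrays (blue lower, red higher; columns are arrays by group, replicate and title code suffix). The columns of 12 h replicates 3 and 4 are near 0 or above it for Dusp6, Spry1, Spry2, Spred1 and Spred2 and below 0 for Spry4 and Phlda1.

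The 12 h replicates 3 and 4 also stood apart on other measures. They were the most alike of all pairs of arrays (SD of their log2 differences 0.150, the next closest pair 0.277). The mean log10 level of their poly-A spike-ins, RNAs added before labelling, was 0.771 and 0.836, lower than the 1.09 to 1.16 of 12 h replicates 1, 2 and 5 and within the 0.244 to 0.855 of undifferentiated arrays, while their hybridisation spike-ins differed (1.59 and 1.31). The summed astrocyte markers of these arrays, 1044 and 1343, and their summed oligodendrocyte markers, 965 and 1155, lay within or just below the undifferentiated ranges. These sums are carried by the brightest genes, and single markers differed. In replicate 3, 3 of 11 astrocyte and 2 of 12 oligodendrocyte markers lay above every undifferentiated array (19.8% of all genes did), and in replicate 4, 4 of 11 and 4 of 12 did (17.4%). Relative to the undifferentiated mean, Sparcl1 was at 2.36 and 2.37 on the log2 scale, Clu at 1.27 and 1.60, Gfap at 0.998 and 1.58, and the myelin genes Mbp at 1.58 and 2.08 and Mag at 1.14 and 1.37. Below that mean in both arrays lay the astrocyte markers Aldh1l1 (-0.15 and -0.03) and Gjb6 (-0.26 and -0.02). In the oligodendrocyte list Cspg4 (-0.94 and -0.90) and Olig1 (-0.55 and -0.32) did so. Above it lay 6 and 9 of 11 astrocyte and 10 and 10 of 12 oligodendrocyte markers (55.4% and 52.6% of all genes). In 12 h replicates 1, 2 and 5, respectively 10, 7 and 8 of 11 astrocyte markers lay above every undifferentiated array. Of the 12 oligodendrocyte markers 3, 1 and 7 did so (28.5%, 25.2% and 22.7% of all genes did). The part of these cells in the results was not tested. Whether these arrays carry 12 h RNA as labelled was not tested. They were the 12 h arrays in which most of these genes had not fallen. A fit without both therefore had its outcome at 12 h largely set beforehand and is no test of the fall. In that fit all 6 tested feedback inhibitors were lower at 12 h (14.8% of all genes were lower), with Dusp6 at -3.09 ± 0.52, Spry1 at -2.69 ± 0.54 and Spred1 at -0.39 ± 0.12. Leaving out either array alone gave 2 of 6 lower, Phlda1 and Dusp6 (limma adjusted p = 0.0373 without replicate 3 and 0.0352 without replicate 4). Of all genes 8.21% and 6.8% were lower in these fits. Between 24 h and 12 h 0 of 6 passed in limma without both (0.0126% of all genes were lower), and the difference was -0.78 ± 0.52 for Dusp6 and -0.76 ± 0.28 for Spred2.

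Both of these arrays carry title code suffix B, which has 2 arrays in each group, so the changes were also taken within each suffix. At 12 h the log2 differences of Dusp6 were -2.91, 0.39 and -4.11 within suffixes A, B and C, and those of Spry1 -2.56, 0.36 and -3.22. Those of Spred2 were -1.01, 0.13 and -2.05 and those of Phlda1 -1.75, -0.78 and -2.01. Within suffix B, only Phlda1 of the 6 tested genes was lower at 12 h (51.4% of all genes lay below 0 there), whereas all 6 lay below 0 within A and within C. At 12 h suffix B holds only the 2 arrays in which most of these genes had not fallen. The outcome of a comparison of B with A there was thus largely set beforehand and is no test. As an interaction over all genes, the change in B minus that in A was 3.30 ± 0.71 for Dusp6 (limma adjusted p = 0.0522), 0.85 ± 0.23 for Spred1 (0.0987) and 2.92 ± 0.97 for Spry1 (0.157). At an adjusted p under 0.05, 0 of 6 passed in limma (0.809% of all genes were higher and 0.405% lower). At an unadjusted p under 0.05, 5 of 6 were higher. The share of all genes at that threshold was not taken, so this count does not set these genes apart from others.

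At 24 h all 6 lay below 0 within every suffix. The differences within A, B and C were -5.02, -2.68 and -5.10 for Dusp6, -3.29, -2.00 and -3.95 for Spry1 and -2.08, -1.60 and -2.94 for Spred2. They were -1.47, -0.79 and -1.75 for Spry2, -0.51, -0.59 and -0.64 for Spred1 and -1.33, -0.69 and -1.88 for Phlda1. Without the 4 arrays of suffix C, 2 of 6 passed at 24 h, Dusp6 (limma adjusted p = 0.0281) and Spred2 (0.0153), with 7.74% of all genes lower. Spred1 varied least between suffixes, and for 5 of the 6 genes suffix B had the smallest fall. The interaction of suffix B with A at 24 h passed for 0 of 6 (limma adjusted p from 0.493 to 0.944), with 0% of all genes passing in either direction. At an unadjusted p under 0.05 stood 1 of 6, Dusp6. The share of all genes at that threshold was not taken, so this count does not set Dusp6 apart from other genes.

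**Figure D4:**
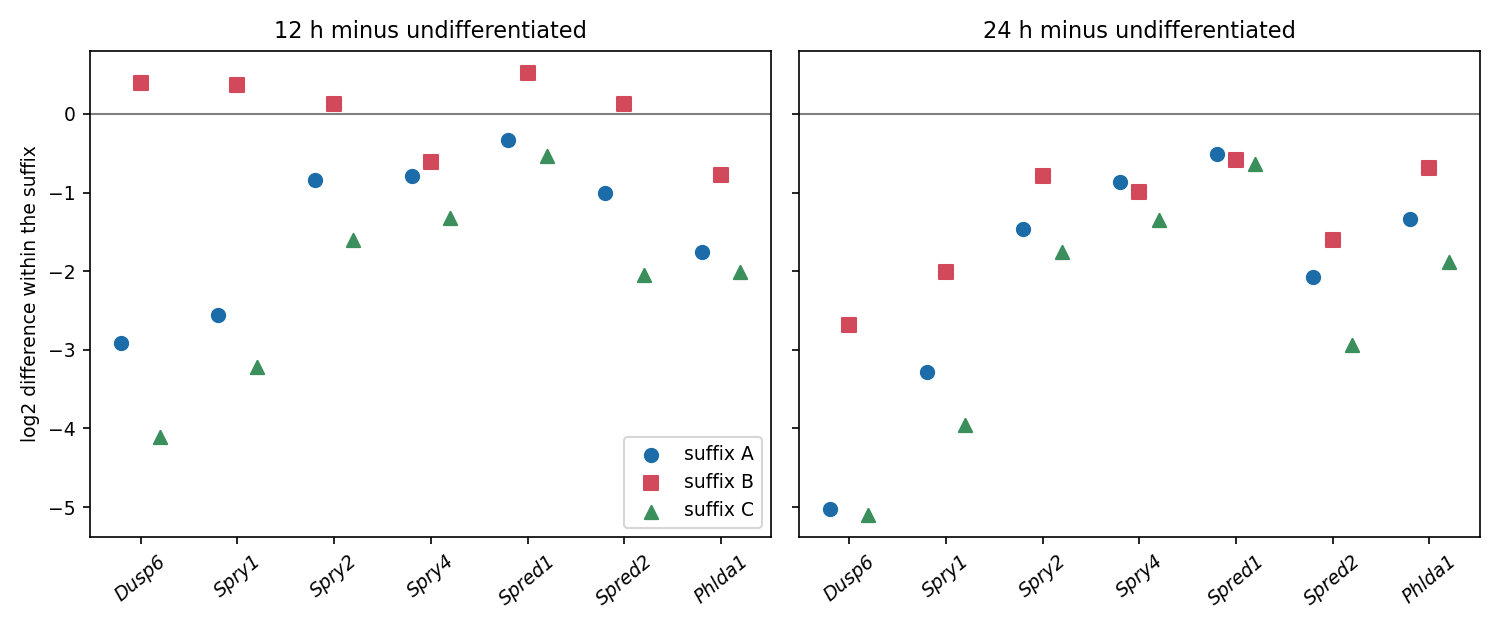
Log2 difference from the undifferentiated arrays of the same title code suffix at 12 h (left) and 24 h (right), 1 point per gene and suffix, each a difference of means over 1 or 2 arrays per group. At 12 h the suffix B points lie above 0 except for Spry4 and Phlda1, and at 24 h all points lie below 0.

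The signal of beta-actin probe sets near the 3' end over that near the 5' end, which grows as RNA degrades or labelling shortens, moved with the groups. This ratio was 1.95 ± 0.238 in undifferentiated, 2.36 ± 0.148 in 12 h and 2.78 ± 0.365 in 24 h arrays (SD, n = 5 each). It differed from undifferentiated cells with two-sided p = 0.0159 at 12 h and 0.00794 at 24 h by exact permutation tests, the latter the smallest that 5 against 5 arrays allow (both 0.0714 after adjustment over 9 tests). The same 3' to 5' ratio for Gapdh was 1.19 ± 0.207 in undifferentiated, 1.29 ± 0.0772 in 12 h and 1.34 ± 0.0788 in 24 h arrays (SD, n = 5 each). Against undifferentiated cells exact permutation tests of the Gapdh ratio gave two-sided p = 0.341 at 12 h and 0.151 at 24 h. For the median level of the arrays exact permutation tests gave two-sided p = 0.952 at 12 h and 0.198 at 24 h. The beta-actin ratio of 12 h replicates 3 and 4 was 2.21 and 2.42. With this ratio as a covariate 0 of 6 feedback inhibitors were called at 24 h, and 5 of all 7909 genes were lower in place of 1533 (1914 genes had an unadjusted p under 0.05). The difference of Dusp6 was then -4.31 ± 1.25 (limma adjusted p = 0.0784), that of Spry1 -2.72 ± 1.21 (0.189), that of Spred2 -1.72 ± 0.62 (0.120) and that of Phlda1 -0.54 ± 0.57 (0.590). The part of RNA quality in these falls and that of time without growth factors cannot be told apart in this fit.

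Within groups the genes rose and fell together from array to array, mostly along the split of the 12 h arrays. Over the 15 arrays the deviations of a gene from its group means correlated with the mean of the other 5 tested genes at r = 0.944 for Spry2 (Spearman's rho 0.957), 0.935 for Spry1 (0.968), 0.934 for Spred2 (0.904) and 0.906 for Dusp6 (0.857). The values were lower for Spred1 (r = 0.709, rho 0.446) and Phlda1 (r = 0.560, rho 0.671). These are descriptions over arrays that share culture, labelling and hybridisation, with no test. Among single pairs, Dusp6 with Spry1 was highest (r = 0.947) and Spred1 with Phlda1 lowest (r = 0.331).

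Outside the list, Ccnd1, the cyclin that carries growth factor signals into the cell cycle, had levels most like the mean of the 6 genes over the 15 arrays (r = 0.980, rho 0.971, and 0.977 without the 2 arrays farthest from the median). It was followed by the actin-binding gene Tagln2 (0.974), then Wsb2, Nubp1, the metalloprotease Adam12, the calmodulin-dependent kinase Camk2b, cyclin E1 (Ccne1) and the cap-binding translation factor Eif4e (0.967). For deviations from group means the closest were Camk2b (0.972), Pvt1, Ccne1, Aen, Ccnd1, Tagln2, Tbc1d1 and Hat1 (0.949), with 4 genes in both sets. A high correlation was common in these arrays: 12.1% of 7781 genes had r above 0.8 for levels and 5.64% for deviations. Ccnd1 fell by 2.74 ± 0.59 on the log2 scale at 24 h (limma adjusted p = 0.00319), and Camk2b fell at both 12 h (-1.58, limma adjusted p = 0.0182) and 24 h (-3.06 ± 0.36, limma adjusted p = 7.96e-05).

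Genes elsewhere in the pathway passed in both directions. Of 8 tested receptors and ligands of FGF and EGF signalling, 2 were higher and 2 lower at 24 h, with a list median of -0.08 (of all genes 12.7% were higher and 19.4% lower). The EGF receptor Egfr fell by 1.08 ± 0.24 on the log2 scale (limma adjusted p = 0.00328) and Fgfr1 by 0.92 ± 0.22 (0.00600). The ligand Tgfa rose by 1.59 ± 0.30 (0.00131) and Fgfr2 by 0.92 ± 0.21 (0.00390). At 12 h 2 of the 8 were higher, Fgfr2 by 0.99 ± 0.21 and Fgfr3 by 0.91 ± 0.24, and 0 lower (3.3% of all genes were higher at 12 h and 4.56% lower).

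Of 13 tested genes of the cascade from adaptor proteins through RAS to ERK and its kinase targets, 3 were higher and 1 lower at 24 h, with a median of 0.01 (12.7% and 19.4% of all genes). The exchange factor Sos2 rose by 0.75 ± 0.18 (limma adjusted p = 0.00549), the small GTPase Rras2 by 0.68 ± 0.24 and the phosphatase Ptpn11 by 0.50 ± 0.19, and the ERK-activated kinase Rps6ka3 fell by 0.57 ± 0.12 (0.00309). The MEK genes did not pass, at -0.49 ± 0.19 for Map2k1 (limma adjusted p = 0.0566) and -0.39 ± 0.18 for Map2k2 (0.110). At 12 h 1 of 13 was lower, Rps6ka3 at -0.46 ± 0.12.

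Of 8 other negative regulators tested, 2 were lower at 24 h, with a median of -0.25, a share near the 19.4% of all genes that were lower. The RAS GTPase-activating protein Rasa3 fell by 1.41 ± 0.18 (limma adjusted p = 0.000142), and Lrig1, which drives the breakdown of EGF receptors, fell by 1.10 ± 0.22 (0.00180). Nf1, which encodes the neurofibromin that SPRED proteins bind, did not pass (-0.15 ± 0.15, limma adjusted p = 0.448). Of 11 other dual specificity phosphatases 4 were lower and 0 higher, with a median of -0.21 (19.4% and 12.7% of all genes). Dusp1 fell by 1.75 ± 0.56, Dusp16 by 0.72 ± 0.22, Dusp10 by 0.57 ± 0.20 and Dusp7 by 0.72 ± 0.26. The related gene Phlda3, the tested member of the Phlda family besides Phlda1, fell by 1.25 ± 0.30 (limma adjusted p = 0.00515).

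Of 12 tested genes that ERK is known to induce, 4 were lower and 0 higher at 24 h, with a median of -0.28, again beside 19.4% and 12.7% of all genes. The ETS-family factors Etv4 and Etv5, which act downstream of FGF, fell by 2.82 ± 0.39 (limma adjusted p = 0.000190) and 2.64 ± 0.47 (0.000927), Ier3 by 2.04 ± 0.38 and, as given above, Ccnd1. The immediate early genes Fos (1.35 ± 0.78), Junb (0.75 ± 0.65) and Egr1 (0.21 ± 0.60) did not pass. The rest of the list did not pass either and lay below 0. These were Ier2 (-0.15 ± 0.50), Egr2 (-0.05 ± 0.63), Maff (-0.33 ± 0.48), Myc (-0.24 ± 0.27) and Hmga2 (-1.25 ± 0.47). At 12 h 0 of 12 passed in limma, with 4 lower at an unadjusted p under 0.05 (2077 of all 7909 genes differed in either direction by that measure). Between 24 h and 12 h 0 genes of any of these lists passed in limma. At an unadjusted p under 0.05, 0 to 4 were lower and 0 to 2 higher per list, beside 1188 of all 7909 genes in either direction.

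**Figure D5:**
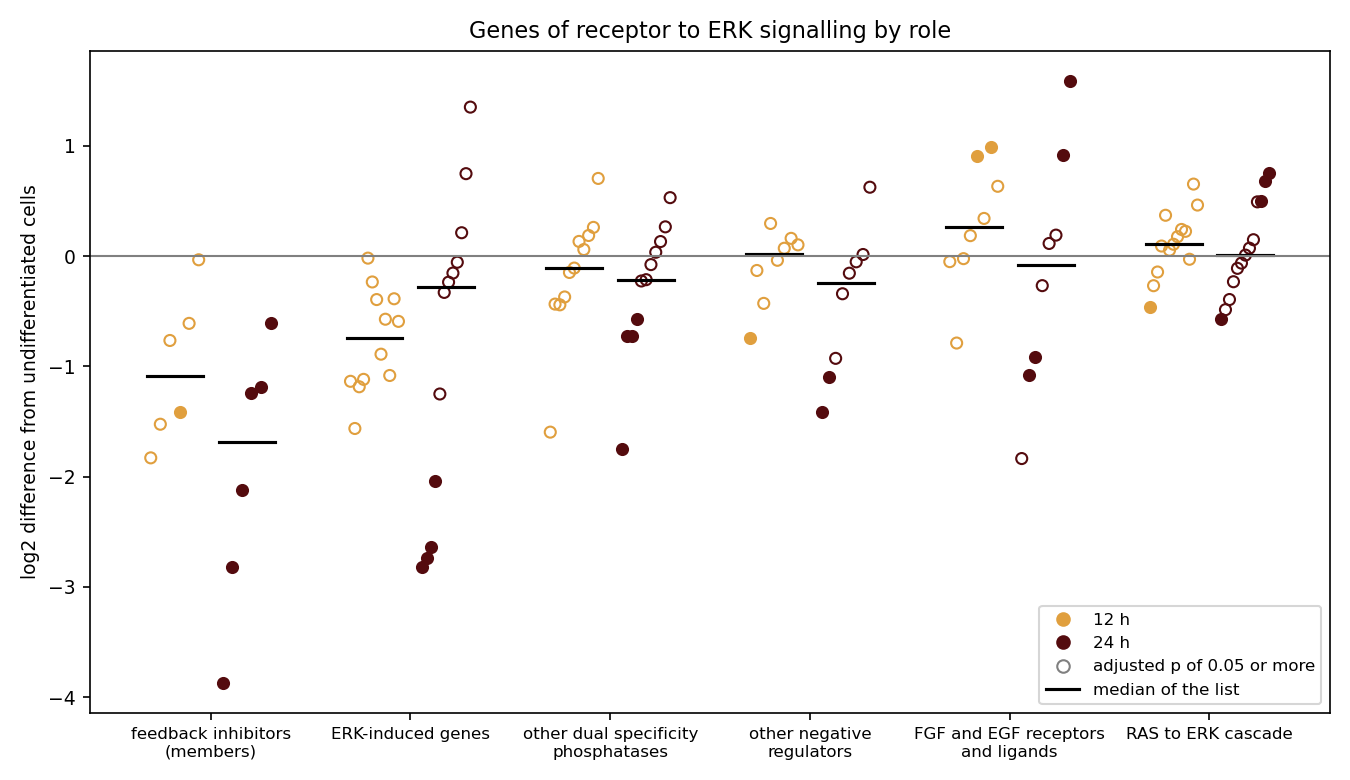
Log2 difference from undifferentiated cells at 12 h and 24 h for each tested gene of the feedback inhibitors and of 5 other lists of receptor to ERK signalling (filled, adjusted p under 0.05; open, 0.05 or more; bars, list medians). At 24 h the feedback inhibitors are all filled and below 0, and each of the other lists has open points.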

How the data were processed

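Biotin-labelled cRNA of 15 samples was measured on Affymetrix mouse arrays, 1 per sample, per the labels. The deposited values, 1 per probe set and array, were read as log10. The submitters' processing notes name MAS5; for its version, settings and scaling, and for the log base, "not given in the sources used here" applies. The base was read from the hybridisation spike-ins: per log10 unit of standard concentration the value rose by 1.07 ± 0.0655 (SD, 15 arrays). Multiplied by 3.32, values became log2 values and were not normalised further.

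Gene names came from the platform annotation (20380 probe sets with 1 symbol, 691 with several and 1555 with none here; 20351 matched GRCm38.p6 by Entrez number). The brightest probe set stood for a gene, and 7909 of 12393 genes above the 40th percentile of probe sets were tested with limma 3.58.1 in R 4.3.3, all arrays in the same fit, a variance trend, and Benjamini-Hochberg adjustment over all genes tested. Errors on differences are standard errors of that fit, which was tested on simulated data.

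The genes, lists and tests were chosen with earlier results of these data known. Named are the 8 genes with every probe set, up to 3 called genes per list and direction with the smallest p at 24 h, and the 8 genes that correlate best by levels or by deviations. Dusp7, Fgfr3, Map2k1, Map2k2, Nf1, Mog, Slc1a2, Sparcl1, Clu, Gfap, Aldh1l1, Gjb6, Mbp, Mag, Cspg4, Olig1, Hbegf, Hmga2, Fos, Egr1, Junb, Ier2, Egr2, Maff and Myc were named after their values were seen. The 36 alternatives changed labels, normalisation, filter, probe set choice, floor, variance model, samples, batch terms, RNA quality and single arrays. The suffix interaction was added after the arrays were seen.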

Additional observations from a re-analysis of the deposited data

How the results depend on the processing

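Of 36 alternatives, 30 also gave 6 feedback inhibitors lower at 24 h, with 14% to 25% of all genes lower in them. Median centring gave 5 (14% of all genes were lower), no filter 7 with Spry4 (13.7%) and leaving out suffix A 4 (16.2%). Leaving out suffix C gave 2 (Dusp6 and Spred2, of the 7.74% of all genes lower). Grouping by file code (0%) and the actin ratio as a covariate (0.0632%) gave 0 each. Leaving out single arrays gave 6 to 6 at 24 h (15.3% to 21.4% of all genes). At 12 h, where 1 was lower, the count was 0 to 2 without single arrays. It was 0 without undifferentiated replicate 4 or 5 or 12 h replicate 2 or 5 (1.3% to 1.72% of all genes were lower). It was 2 without 12 h replicate 3 (8.21%) or 4 (6.8%). It was 0 by file code (0%), without suffix A (0.139%), without suffix C (0.443%) and with the actin covariate (0.228%). It was 2 without a filter (2.65%) and with the suffix as a fixed (10.7%) or a random block (10.4%). Runs of codes as a random block (10.4%) and 12 h replicates 3 and 4 averaged (7.2%) also gave 2. Leaving out suffix B gave 5 (9.46%) and leaving out 12 h replicates 3 and 4 gave 6 (14.8%). Both of these leave out the 12 h arrays in which most of these genes had not fallen. Between 24 h and 12 h, where 0 passed, the count was 0 to 2 without single arrays (2 without 12 h replicate 5, with 3.02% of all genes lower). Array weights gave 4 (4.94%). The suffix as a fixed (2.05%) or random block (2.47%) and runs as a random block (2.35%) gave 1 each. The cause was not tested. The number higher was 0 throughout.

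Of 252 differences per comparison (7 genes and 36 alternatives), 243 at 12 h, 250 at 24 h and 217 between the times were below 0. Reversals by file code were Spry1 at 12 h (0.37) and 24 h (0.19), Phlda1 at 24 h (0.0165) and Spred1 between the times (0.0273). The difference of Spred1 at 12 h turned to 0.00924 with quantile normalisation, 0.11 with array weights, 0.17 and 0.0945 without suffix A and C, 0.0804 with the actin covariate, and ran from -0.18 to 0.0981 without single arrays, above 0 without 12 h replicate 1 (0.0543), 2 (0.0203) or 5 (0.0981). That of Phlda1 between the times turned to -0.0302 without suffix A and ran from -0.0596 to 0.36 without single arrays, below 0 without 24 h replicate 2 (-0.0596) or 12 h replicate 2 (-0.0496), and that of Spry4 to 0.0753 without 12 h replicates 3 and 4. The labels give no replicate numbers, and the blocks used were the title code suffix and the runs of consecutive title codes. The gene gained was Dusp6 at 12 h and Spred2 between the times in each of those fits that gained a gene. Runs as a fixed block gave 1, 6 and 0 in the 3 comparisons, with 8.74%, 23.6% and 0.0253% of all genes lower. The 2 probe sets of Spry4 and 2 others lay below the filter, where signal limits what these arrays can measure.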

Other observations

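Genes that ERK is known to induce were not uniform in 12 h replicates 3 and 4, the arrays in which Dusp6, Spry1, Spry2 and Spred2 stayed at the undifferentiated level. These genes were picked after their values were seen and are given with no test. Relative to the undifferentiated mean, the log2 level of Ccnd1 was -0.11 and 0.03 in these arrays, against a mean of -2.58 in the other 12 h arrays, and that of Etv4 was -0.11 and -0.16 against -1.80. The EGF-family ligand Hbegf was above the undifferentiated mean in both, by 2.22 and 2.05, and stood at -1.50 in the other 12 h arrays. The chromatin protein Hmga2 followed the same form, with 1.63 and 1.37 against -1.03. The immediate early gene Fos took the other side, at -2.26 and -1.77 against 0.36, and Egr1 lay below the undifferentiated mean in both sets, at -1.54 and -1.30 against -0.86.

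The lists around the feedback inhibitors also changed with the settings. Over the 36 alternatives, from 0 to 6 of the ERK-induced genes tested and from 0 to 5 of the other dual specificity phosphatases tested were lower at 24 h. The share of all genes lower ran from 0% to 25% over the same settings.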
